A study of Mus musculus with 6 samples.

Results

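The vacuolar ATPase (V-ATPase) and lysosome genes were examined as 1 module of 39 genes in differentiating mouse embryonic stem (ES) cells depleted of Atad2, a nuclear ATPase whose bromodomain recognises acetylated histones. The module was built around Atp6v0e, which was chosen by its p, the smallest of all genes in an earlier comparison of these same arrays. The other pump subunits, lysosomal membrane proteins and lysosomal enzymes were added by name. The change of Atp6v0e is therefore given as a description without a test, and the question put to the data was whether it moved alone or with the rest. Of the 39 genes, 37 had a probe and 35 were measured, among 10072 genes measured in all. Atp6v0c and Atp6v1f had no probe with their symbol, and the probes of Gla and Tfeb were not above background on enough arrays.

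Both groups were 46C ES cells in which the Atad2 gene itself carries a tag, derived from 1 chosen clone. The shAtad2 cells stably expressed a lentiviral short hairpin RNA (shRNA) against Atad2 from the pLKO.1 vector, and the shCtrl cells a non-targeting shRNA from the same vector. Pools of puromycin-resistant cells, not single clones, were left to differentiate for 3 days after withdrawal of the self-renewal cytokine LIF (leukaemia inhibitory factor), and total RNA was read on Illumina MouseWG-6 v2.0 beadchips with 3 arrays per group. Whether the replicates were grown separately is not stated in the sources used here. A p-value therefore measures only the scatter of these 6 arrays, which may be technical.

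The V-ATPase is a rotary proton pump of endosomes, lysosomes and secretory vesicles. Its V1 sector, on the cytosolic side, hydrolyses ATP, and its V0 sector, in the membrane, lets protons through, so that the lumen becomes acid and lysosomal hydrolases can work. Many genes of the pump and of the lysosome are known targets of the transcription factor TFEB and its relatives, which bind CLEAR elements built around the E-box CACGTG.

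The promoters of 4 members are shown, picked by change or by a shared motif. Atp6v0e had the largest change in the module, Atp6v0d1 and Atp6v1a are pump genes with the same 8-base motif and small changes, and Npc2 had the most negative change after Atp6v0e. Each window is RefSeq sequence of GRCm38.p6, 250 bases before to 50 bases from the annotated start, with the motif TCACGTGA in capitals where it occurs. Atp6v0e lies on the plus strand at chr17:26676146-26676445. Atp6v0d1 at chr8:105566015-105566314, Atp6v1a at chr16:44139210-44139509 and Npc2 at chr12:84773063-84773362 lie on the minus strand.
Atp6v0e: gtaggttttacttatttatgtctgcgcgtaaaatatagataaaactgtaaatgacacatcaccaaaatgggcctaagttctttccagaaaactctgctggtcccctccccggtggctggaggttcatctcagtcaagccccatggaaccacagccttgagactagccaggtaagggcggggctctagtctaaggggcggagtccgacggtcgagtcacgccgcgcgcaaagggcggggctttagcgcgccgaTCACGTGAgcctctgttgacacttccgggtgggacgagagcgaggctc
Atp6v0d1: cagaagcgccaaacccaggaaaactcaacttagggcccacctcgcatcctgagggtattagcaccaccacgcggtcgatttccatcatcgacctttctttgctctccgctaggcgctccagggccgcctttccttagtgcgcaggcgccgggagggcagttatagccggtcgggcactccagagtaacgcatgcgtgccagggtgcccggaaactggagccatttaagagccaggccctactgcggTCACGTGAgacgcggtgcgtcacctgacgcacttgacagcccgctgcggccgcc
Atp6v1a: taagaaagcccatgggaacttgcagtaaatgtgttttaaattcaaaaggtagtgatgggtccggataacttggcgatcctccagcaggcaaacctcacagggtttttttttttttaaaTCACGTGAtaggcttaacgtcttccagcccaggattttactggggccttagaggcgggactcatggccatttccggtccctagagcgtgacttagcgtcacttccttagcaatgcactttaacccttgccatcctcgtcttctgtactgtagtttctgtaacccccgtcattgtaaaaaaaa
Npc2: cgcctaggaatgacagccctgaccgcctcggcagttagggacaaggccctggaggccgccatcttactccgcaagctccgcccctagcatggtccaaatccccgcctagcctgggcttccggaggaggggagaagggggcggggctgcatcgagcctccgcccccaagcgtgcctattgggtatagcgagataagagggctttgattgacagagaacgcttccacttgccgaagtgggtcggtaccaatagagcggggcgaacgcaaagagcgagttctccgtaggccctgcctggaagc
The first base of CACGTG stood at position 4 in Atp6v0e, at -3 in Atp6v0d1 and at -131 in Atp6v1a, counted from the annotated start as 1 with no position 0, and the Npc2 window held no CACGTG.

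The 6 arrays had between 17792 and 18513 of 45281 probes above background. Atad2 read 5.69, 5.64 and 5.41 in shAtad2, against 6.28, 6.48 and 6.39 in shCtrl, so the targeted gene was lower on every shAtad2 array (normalized log2 intensity, as are all levels given here). The third arrays of both groups stood apart from the others in the same way. Over all genes, 3230 (32.1%) lay above the mean of the first and second arrays on the third arrays of both groups and 3279 lay below it on both. All 10 pluripotent cell markers, Pou5f1 and Nanog among them, were above background on all 6 arrays, with a mean level of 10.67 to 10.75 in shAtad2 and 10.77 to 10.88 in shCtrl. Of these, 8 lay lower and 2 higher in shAtad2, with a median change of -0.17 (-0.19, -0.11 and -0.23 by replicate number). By limma 0 of 10 had an unadjusted p under 0.05, beside 7.92% of all genes. With a block on replicate number there were also 0, beside 13.4%. The mean level hides shifts of single markers on the third arrays, where 5 lay above on both and 4 below on both. Zfp42 read 9.88, 9.80 and 7.85 in shAtad2, against 9.65, 9.92 and 8.34 in shCtrl. Utf1 read 8.92, 8.78 and 9.95, against 8.28, 8.87 and 9.48. The part of the pluripotent cell markers in the results was not tested.

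Atp6v0e, the small hydrophobic e subunit of the V0 sector, had the 5th most negative change of all genes in the reported fit (24th without shCtrl 3). It read 10.58, 10.69 and 10.77 in shAtad2, against 11.97, 11.93 and 11.77 in shCtrl. All 3 shAtad2 arrays lay below all 3 shCtrl arrays, and the nearest arrays, shAtad2 3 and shCtrl 3, were 1.005 apart. The means were 10.68 ± 0.09 in shAtad2 and 11.89 ± 0.11 in shCtrl (SD, n = 3 each), so that shAtad2 lay 2.32-fold lower (log2 change -1.21, SE 0.13). By replicate number the differences were -1.39, -1.24 and -1.005. Fewer cells that express a gene and less of its RNA per cell cannot be told apart in such bulk RNA.

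The gap was already present before any normalization. The deposited unnormalized intensity of Atp6v0e was 1632, 1630 and 1904 in shAtad2, against 4635, 4022 and 3424 in shCtrl, a ratio of the means of 2.34. In the table processed by the authors it was 1799, 1934 and 2029 in shAtad2, against 4567, 4466 and 3994 in shCtrl, a ratio of 2.26. Atp6v0e was read by 1 probe only, which was above background on all 6 arrays, so no second probe could be set beside it.

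The other 34 measured members were spread around no change. Of these, 16 lay lower and 18 higher in shAtad2, with a median change of 0.01 and a range of -0.59 to 0.42, beside a median of -0.0012 over all genes. By limma 0 of 34 passed an adjusted p of 0.05 (0 of all genes, 0%), with a smallest adjusted p of 0.456. At an unadjusted p under 0.05 there were 2 of 34 (5.88%), beside 7.92% of all genes. These were Npc2, lower, and Atp6v0a1, higher, each 1 of 34, beside 3.8% of all genes lower and 4.12% higher. In the fit blocked on replicate number there were 3 of 34 (8.82%), Ctsc being added, beside 13.4% of all genes, and 0 of 34 passed an adjusted p of 0.05 (smallest 0.146) beside 0.0993% of all genes. The count was 1 when the first or the second array of either group was left out, beside 5.28% to 5.72% of all genes, and 5 without the third arrays of both groups, beside 17.6%. The groups did not overlap in 3 of 34 (8.82%), beside 13.5% of all genes. These were Npc2 and Cln3, lower, beside 6.59% of all genes, and Atp6v0a1, higher, beside 6.94%.

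Without the block, the 95% interval lay within 2-fold in both directions for 32 of 34 (94.1%), beside 91.7% of all genes. The exceptions were Ctsa (-0.83 to 1.39) and Ctsc (-1.08 to 0.25). With the block their SE was smaller, at 0.17 and 0.13 against 0.48 and 0.29, and intervals were not computed. No test was made of Atp6v0e against the other members, since it was chosen by its p on these arrays.

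**Figure D1:**
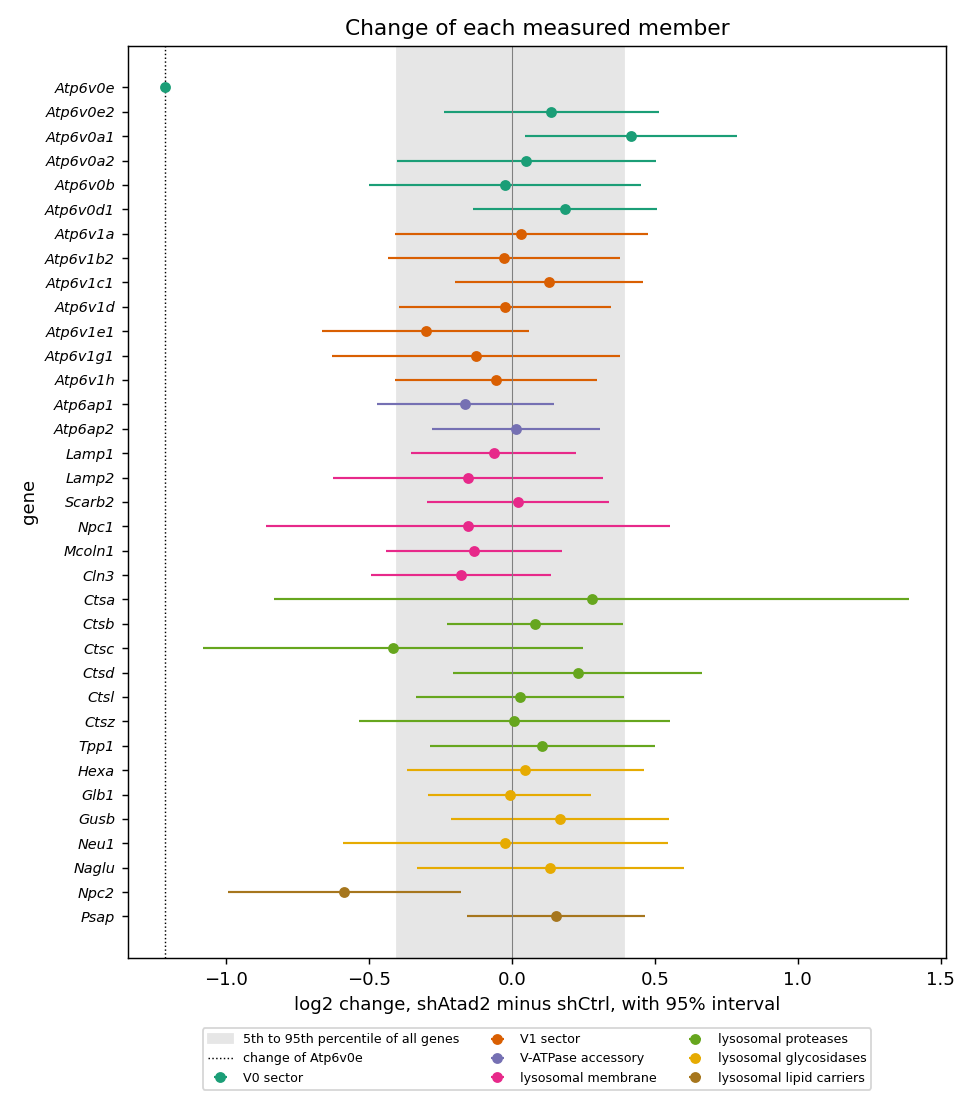
Log2 change of each measured member, shAtad2 minus shCtrl (horizontal axis), by gene (vertical axis) and coloured by role, with points for the estimate and lines for the 95% interval of the limma fit (none for Atp6v0e, which was chosen on this comparison). The grey band spans the 5th to the 95th percentile of all genes (-0.40 to 0.39) and the dotted line marks the change of Atp6v0e at -1.21. The other points lie between -0.59 and 0.42.

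Among the other V0 subunits, 1 of 5 lay lower and 4 higher, with a median of 0.14. Atp6v0a1, an isoform of the a subunit that lines the proton path, read 9.94, 10.23 and 9.89 in shAtad2, against 9.47, 9.52 and 9.82 in shCtrl. Its shAtad2 arrays all lay above its shCtrl arrays, but the third pair differed by only 0.08. The change was 0.42 (SE 0.16, limma unadjusted p 0.0321, adjusted p = 0.570), or 1.34-fold higher, and lay between 0.31 and 0.52 in the fits that left out 1 array. Its sign was opposite to that of Atp6v0e.

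Atp6v0e2, the other isoform of the e subunit, read 5.996, 6.18 and 6.19 in shAtad2, against 6.26, 5.87 and 5.81 in shCtrl. The groups overlapped, and the change was 0.14 (SE 0.16, 95% interval -0.24 to 0.51). Atp6v0d1, the d subunit that joins the membrane ring to the central stalk, read 11.52, 11.38 and 11.60 in shAtad2, against 11.19, 11.31 and 11.45 in shCtrl. Its change was 0.19 (SE 0.14), all 4 of its probes were higher, by 0.08 to 0.26, and its groups overlapped. The changes of Atp6v0a2, another a isoform, and of Atp6v0b, the c'' subunit of the proton-carrying ring, were 0.05 (SE 0.20) and -0.02 (SE 0.21).

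In the V1 sector 5 of 7 subunits lay lower and 2 higher, with a median of -0.03. By limma 0 of 7 had an unadjusted p under 0.05, beside 7.92% of all genes. The most negative was Atp6v1e1, the E subunit of the peripheral stalks, at 12.63, 12.62 and 13.02 in shAtad2, against 13.04, 13.15 and 12.98 in shCtrl. The first and second shAtad2 arrays lay below all shCtrl arrays, while shAtad2 3 lay among them. The change was -0.30 (SE 0.16, limma adjusted p = 0.715) and lay between -0.43 and -0.23 in the fits that left out 1 array.

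The subunits that hydrolyse ATP differed little. Atp6v1a, the catalytic A subunit, read 8.57, 8.41 and 8.96 in shAtad2, against 8.68, 8.36 and 8.80 in shCtrl, a change of 0.03 (SE 0.19). Atp6v1b2, the B subunit that completes the catalytic sites, read 11.67, 12.08 and 11.98 in shAtad2, against 11.95, 11.70 and 12.16 in shCtrl, a change of -0.03 (SE 0.17). In both genes the groups overlapped across most of their range.

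The remaining V1 subunits lay between -0.13 and 0.13. Atp6v1g1, the G subunit of the peripheral stalks, had a change of -0.13 (SE 0.22), Atp6v1h, a regulatory subunit, -0.05 (SE 0.15), Atp6v1d, of the central rotor, -0.02 (SE 0.16), and Atp6v1c1, which takes part in the reversible assembly of the sectors, 0.13 (SE 0.14). The shCtrl 3 array stood 0.71 above the mean of the other shCtrl arrays for Atp6v1g1. Of the accessory subunits, Atp6ap1 (Ac45) had a change of -0.16 (SE 0.13) and Atp6ap2, the prorenin receptor, 0.01 (SE 0.13).

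Over all 14 pump genes other than Atp6v0e, 7 lay lower and 7 higher, with a median of -0.0047, and all 14 intervals excluded a 2-fold change, beside 91.7% of all genes, the widest ends being -0.66 and 0.79. The median by replicate number was -0.12, 0.06 and 0.11. Leaving out single arrays moved the median between -0.086 and 0.068, without a constant sign.

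**Figure D2:**
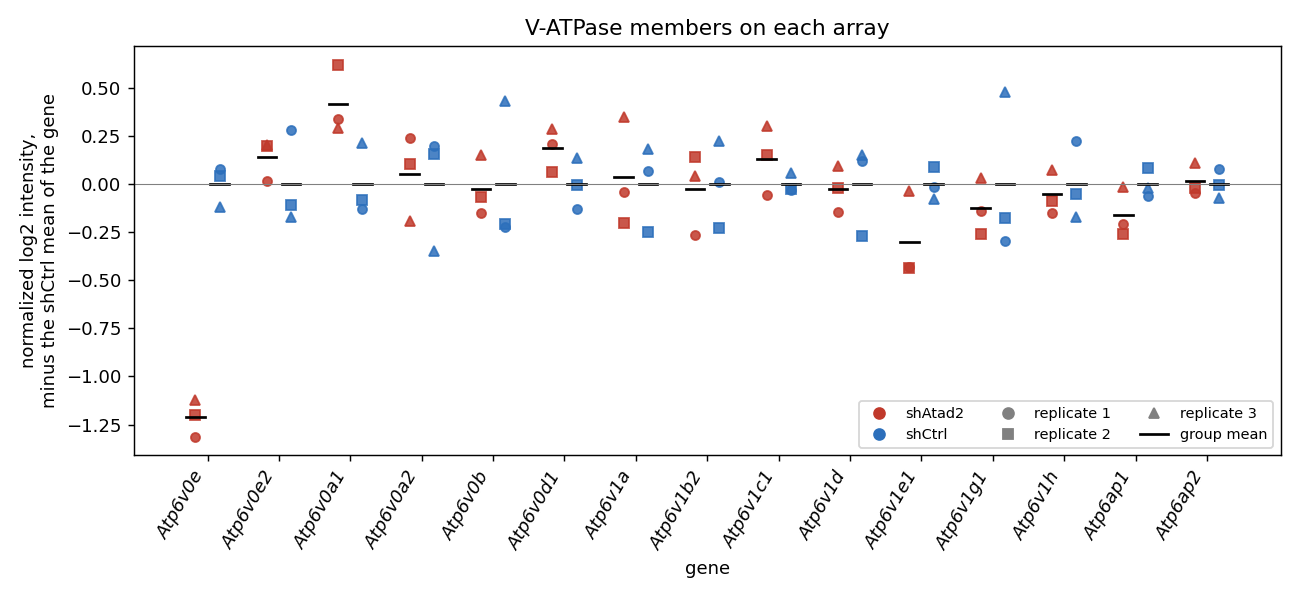
Normalized log2 intensity of each measured V-ATPase gene on each array, less the shCtrl mean of that gene (vertical axis), by gene (horizontal axis), with shAtad2 in red left of shCtrl in blue, a symbol for each replicate number and a bar for the group mean. The 3 shAtad2 arrays of Atp6v0e sit more than 1 unit below its shCtrl mean, while the other group means stay between -0.30 and 0.42.

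The 20 lysosomal genes had a median change of 0.02, with 9 lower and 11 higher. Npc2, a soluble protein of the lysosomal lumen that binds cholesterol and hands it to Npc1, was the most negative. It read 8.99, 9.08 and 9.27 in shAtad2, against 9.38, 9.88 and 9.83 in shCtrl. All shAtad2 arrays lay below all shCtrl arrays, by 0.39, 0.80 and 0.56 in the 3 pairs, and the nearest arrays, shAtad2 3 and shCtrl 1, were 9.27 and 9.38. The means were 9.11 ± 0.15 in shAtad2 and 9.70 ± 0.28 in shCtrl (SD, n = 3 each).

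The change of Npc2 was -0.59 (SE 0.18, 95% interval -0.99 to -0.18). By limma the unadjusted p was 0.0109 (adjusted p = 0.456). The blocked fit gave an adjusted p of 0.146, so Npc2 did not pass the threshold in either fit. Over the fits that each left out 1 array the change was -0.75 to -0.49. The unnormalized intensity was 612, 611 and 758 in shAtad2, against 840, 1051 and 969 in shCtrl, again without overlap. Npc2, too, was read by 1 probe.

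Ctsc, a dipeptidyl peptidase that activates serine proteases of immune cells, read 8.03, 8.09 and 8.76 in shAtad2, against 8.55, 8.33 and 9.25 in shCtrl. The groups overlapped, with the third array highest in each, and the shAtad2 array was the lower one in each of the 3 pairs, by 0.51, 0.24 and 0.49. The change was -0.42 with an SE of 0.29 without the block (limma adjusted p = 0.808) and 0.13 with it (unadjusted p 0.0157, adjusted p = 0.252). All 3 of its probes were lower, by 0.42 to 0.49. Leaving out shCtrl 3 moved the change to -0.14, and leaving out shAtad2 3 moved it to -0.65.

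The other lysosomal proteases lay at or above no change. Ctsa, a carboxypeptidase that also protects the sialidase Neu1, read 8.22, 8.22 and 9.24 in shAtad2, against 7.64, 7.82 and 9.38 in shCtrl, for a change of 0.28 (SE 0.48). The third array of each group lay far above the others, and a dimmer Ctsa probe differed by -0.39. Ctsd, the main aspartic protease of the lysosome, had a change of 0.23 (SE 0.19), and Tpp1, a tripeptidyl peptidase, 0.11 (SE 0.17). The cysteine proteases Ctsb, Ctsl and Ctsz had changes of 0.08 (SE 0.13), 0.03 (SE 0.16) and 0.01 (SE 0.23).

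Of the 6 lysosomal membrane proteins, 5 lay lower and 1 higher, with a median of -0.14. By limma 0 of 6 had an unadjusted p under 0.05, beside 7.92% of all genes. Cln3, the membrane protein mutated in a form of Batten disease, read 8.79, 8.83 and 8.74 in shAtad2, against 8.91, 9.14 and 8.85 in shCtrl. The groups did not overlap, but the gap between shAtad2 2 and shCtrl 3 was narrow, and the change was -0.18 (SE 0.14, limma adjusted p = 0.840). Lamp1, an abundant glycoprotein of the limiting membrane, read 12.16, 12.20 and 12.06 in shAtad2, against 12.24, 12.22 and 12.14 in shCtrl, a change of -0.06 (SE 0.13). Lamp2, its relative that also serves chaperone-mediated autophagy, had a change of -0.15 (SE 0.20), as had Npc1, the membrane protein of cholesterol export (-0.15, SE 0.30). Mcoln1, a cation channel of the lysosome, had a change of -0.13 (SE 0.13) and Scarb2, the receptor that carries glucocerebrosidase to lysosomes, 0.02 (SE 0.14).

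The 5 glycosidases measured had changes of -0.02 to 0.17. They were Gusb, the beta-glucuronidase (0.17, SE 0.16), Naglu, of heparan sulfate breakdown (0.14, SE 0.20), Hexa, the alpha subunit of beta-hexosaminidase (0.05, SE 0.18), Glb1, the beta-galactosidase (-0.01, SE 0.12), and Neu1 (-0.02, SE 0.25). Glb1 had the smallest SE of the members and read 9.05, 8.95 and 9.10 in shAtad2, against 9.05, 9.02 and 9.04 in shCtrl. Psap, the precursor of the saposins that present lipids to some lysosomal hydrolases, read 11.95, 11.77 and 11.69 in shAtad2, against 11.58, 11.65 and 11.72 in shCtrl. Its change was 0.15 (SE 0.13) with overlapping groups.

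**Figure D3:**
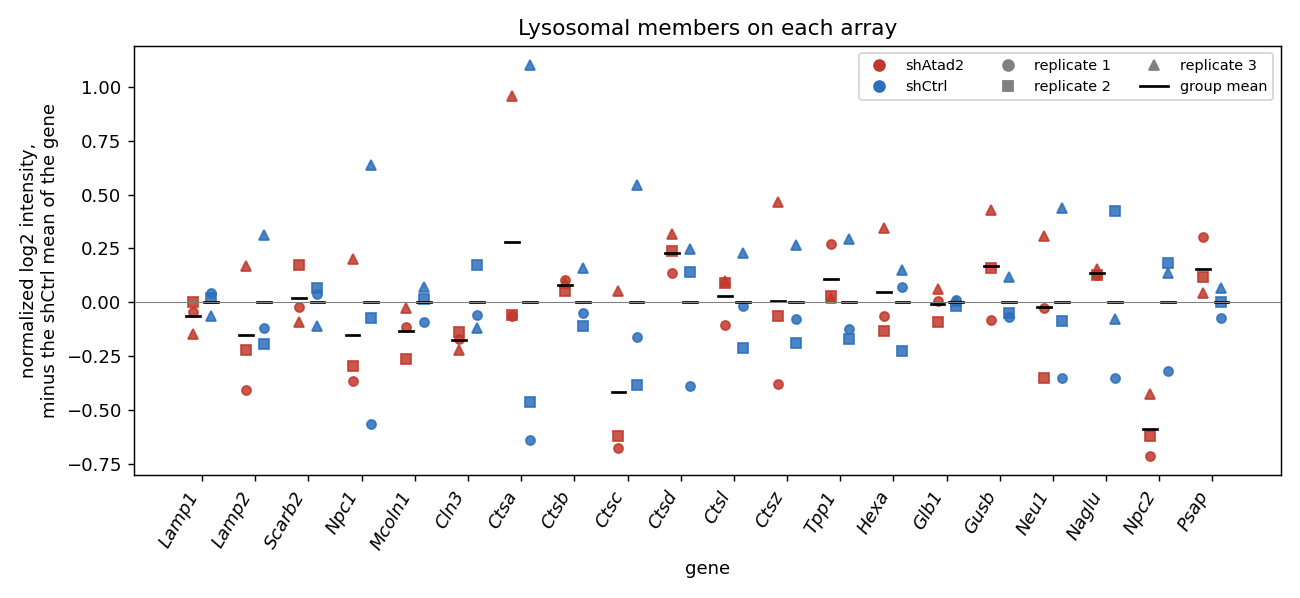
Normalized log2 intensity of each measured lysosomal gene on each array, less the shCtrl mean of that gene (vertical axis), by gene (horizontal axis), with shAtad2 in red left of shCtrl in blue, a symbol for each replicate number and a bar for the group mean. Npc2 and Cln3 have their shAtad2 arrays below all shCtrl arrays, and the triangles of the third replicates sit high in both groups for Ctsa, Ctsc and Npc1.

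The third array of each group was high for part of the module. Of the 34 members other than Atp6v0e, 21 (61.8%) lay above the mean of the first and second arrays on the third arrays of both groups and 4 lay below it on both, beside 32.1% above on both over all genes. Among the lysosomal members the count was 14 of 20 (70%), made up largely of proteases (6 of 7) and glycosidases (4 of 5), while membrane proteins had 3 above and 3 below of 6. It was 5 of 7 among the V1 subunits, 2 of 5 among the V0 subunits other than Atp6v0e and 0 of 2 among the accessory subunits. Of the 83 measured genes of 8 lists outside the module, read below, 36 (43.4%) lay above on both and 23 below on both. The 21 other lysosomal hydrolases had 6 above on both (28.6%) and 7 below on both, and pump assembly had 2 of 8 above (25%). Other lysosomal membrane proteins had 8 of 14 above on both (57.1%), lysosomal sorting 5 of 9 (55.6%) and the Ragulator and mTORC1 list 6 of 11 (54.5%). Ctsa stood 1.02 higher on shAtad2 3 and 1.65 higher on shCtrl 3, Ctsc 0.70 and 0.82, Npc1 0.53 and 0.96, Neu1 0.50 and 0.66, Ctsz 0.69 and 0.40, and Lamp2 0.48 and 0.47. These values and counts use the brightest probe of each gene. The dimmer kept probes of Ctsc and Ctsz also rose on shAtad2 3 and shCtrl 3. The dimmer kept Ctsa probe lay below the mean of the other arrays of its group on both. The dimmer kept Npc1 probes did not rise on both, and those of Lamp2 went either way. Atp6v0e did not share the rise, at 0.13 on shAtad2 3 and -0.18 on shCtrl 3. Its groups lay furthest apart without these arrays (-1.32). These are values of single arrays, the part of the third arrays in each change was not tested beyond the block and the fit without them, and no label says what set them apart.

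Probes of the same gene were then set side by side. Of the 35 measured members, 23 had 1 probe above background and 12 had several. All probes were lower for 3 genes (Ctsc, Glb1 and Npc1) and higher for 3 (Atp6v0d1, Ctsz and Psap), while 6 had probes of both signs. The 59 probes of members other than Atp6v0e differed by -0.73 to 0.42. The lowest, a dim Lamp2 probe at 4.69 in shAtad2 and 5.42 in shCtrl, was above background on 3 arrays, the fewest a measured probe could have. The brightest Lamp2 probe differed by -0.15.

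The filter itself left out 2 members with a probe. Just inside it, Ctsd was above background on 5 arrays and read 5.33, 5.43 and 5.51 in shAtad2, against 4.81, 5.34 and 5.44 in shCtrl. The probes used for the other 33 members besides Atp6v0e were above background on all 6 arrays. Just outside it, a second Atp6v0a1 probe, on 2 arrays, read a mean of 5.22 in shAtad2 and 5.00 in shCtrl. The 2 probes of Tfeb, the transcription factor of lysosomal genes, were above background on 1 and 0 arrays, with mean levels of 4.64 and 4.48 in shAtad2 and 4.82 and 4.61 in shCtrl, so no change can be given for it, nor for Gla, the alpha-galactosidase A, on 0 arrays.

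**Figure D4:**
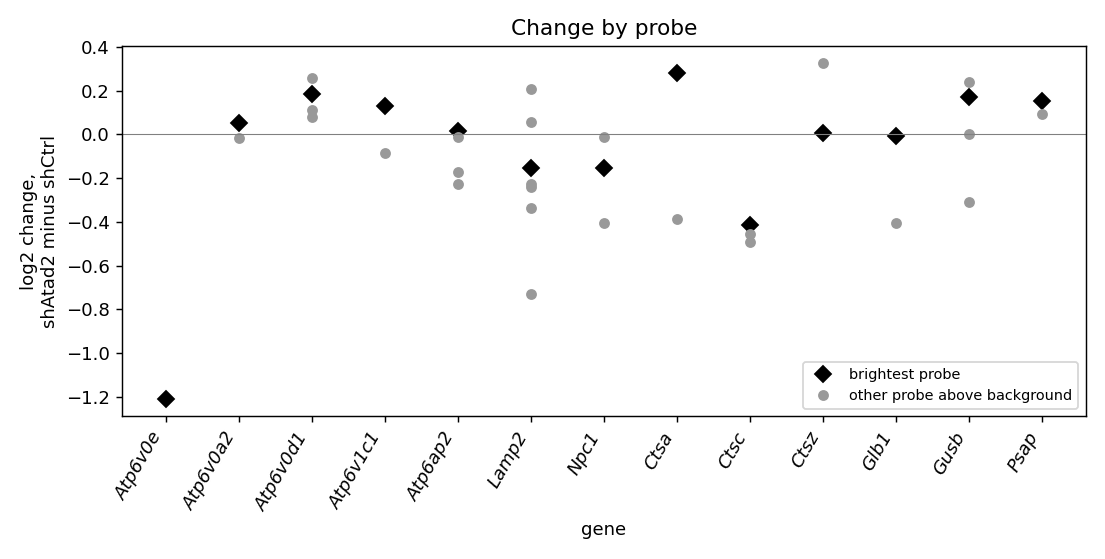
Log2 change, shAtad2 minus shCtrl (vertical axis), of every probe above background for Atp6v0e and for the 12 members with several such probes (horizontal axis), with black diamonds for the brightest probe and grey circles for the others. Apart from Atp6v0e at -1.21, the points lie between -0.73 and 0.33.

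The E-box was common among the members' promoters and did not separate them by change. Promoter windows of 32 members were found. CACGTG occurred in 13 of 32 (40.6%), against 8.09% of 27025 genes and 7.15% of 32851 windows of the same length. The longer TCACGTGA, which contains it, occurred in 8 of 32 (25.0%), against 1.12% of genes and 0.974% of windows. Each motif is a palindrome, so that 1 search covers both strands. A match describes these letters and is no evidence of a bound site.

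Of the measured members other than Atp6v0e, 11 had CACGTG in the window, with 5 lower, 6 higher and a median change of 0.03. The 16 without it had 7 lower, 9 higher and a median of 0.01. The 6 with TCACGTGA, which the Atp6v0e window also holds as printed above, had 2 lower, 4 higher and a median of 0.11, within a range of -0.18 to 0.28. Among them Atp6v0d1, with the motif in nearly the same place as in Atp6v0e, had its change of 0.19, and Atp6v1a had its change of 0.03.

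Genes beside Atp6v0e on its chromosome were also read, taking the 3 nearest measured genes on each side in the RefSeq order. On one side Ergic1 had a change of -0.14 (SE 0.15), Dusp1, a phosphatase of MAP kinases, -0.30 (SE 0.31) and Luc7l 0.10 (SE 0.14). On the other side Bnip1 had a change of 0.18 (SE 0.19), Kifc5b 0.07 (SE 0.19) and Cuta -0.14 (SE 0.19). By limma the smallest adjusted p of these 6 was 0.904.

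The wider pathway was read through 8 lists of 109 genes, of which 83 were measured. They held 39 lower and 44 higher genes, with a median change of 0.02. At an unadjusted p under 0.05 there were 7 of 83 (8.43%), 4 lower and 3 higher, close to the 7.92% of all genes, and with the replicate block 10 (12%), beside 13.4%. By limma 0 passed an adjusted p of 0.05 in either fit, with a smallest adjusted p of 0.310 without the block and 0.108 with it.

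The gene with the smallest p of these 83 was Sidt2, a multipass protein of the lysosomal membrane. It read 7.86, 7.79 and 7.90 in shAtad2, against 8.43, 8.57 and 8.55 in shCtrl, a change of -0.66 (SE 0.12, limma unadjusted p 0.00078, adjusted p = 0.310). Its groups did not overlap. The list of other lysosomal membrane proteins from which it comes had 4 lower and 10 higher of 14, with a median of 0.10.

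Gnptab, a subunit of the enzyme that gives lysosomal hydrolases their mannose 6-phosphate tag, read 7.30, 7.06 and 7.40 in shAtad2, against 7.79, 7.80 and 7.81 in shCtrl. The groups did not overlap, and the change was -0.55 (SE 0.14, limma unadjusted p 0.00462, adjusted p = 0.409). Its list of lysosomal sorting genes had 5 lower and 4 higher of 9, with Sort1, a sorting receptor named after its value was seen, at 0.51 (SE 0.18). The list of other lysosomal hydrolases had 9 lower and 12 higher of 21, a median of 0.03, and 95% intervals that reached from -0.92 to 1.11. By limma 0 of its 21 genes had an unadjusted p under 0.05, beside 7.92% of all genes. The smallest p in it was that of Hgsnat, a membrane acetyltransferase that takes part in heparan sulfate breakdown, at 0.21 (SE 0.12).

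In the remaining lists the smallest p belonged to Wdr7, a Rabconnectin subunit tied to pump assembly (0.40, SE 0.13), to Rraga, a Rag GTPase of the lysosomal surface (-0.38, SE 0.14), to Ulk1, the kinase that starts autophagy (-0.47, SE 0.17), to Atp6v1g2, the neuronal G isoform (-0.37, SE 0.19), and to Tfe3, the relative of TFEB (0.13, SE 0.17). Rraga and Atp6v1g2 read near background, at means of 4.89 and 5.05 in shAtad2, against 5.27 and 5.42 in shCtrl. Rragd, another Rag GTPase, named after its value was seen, had a change of 0.46 (SE 0.18). Assembly and regulation of the pump had 6 lower and 2 higher of 8, the Ragulator and mTORC1 list 5 and 6 of 11, and autophagy 7 and 7 of 14. The adjusted p of the genes named in these lists was 0.523 or more by limma.

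Markers of cell types the cultures could hold were read beside these results. Macrophages, which are rich in lysosomes, were represented by 1 of 8 markers measured (Mrc1, 0.01), 5 being on no array, among them Ptprc, Adgre1 and Lyz2. Of 10 visceral endoderm markers 3 were measured, with a median change of -0.01 and a mean level of 6.28 to 6.88 in shAtad2 and 6.41 to 6.81 in shCtrl, and Afp and Ttr were on no array. Of 8 fibroblast markers 3 were measured, at a mean level of 6.65 to 6.76 in shAtad2 and 6.54 to 6.75 in shCtrl, and Col1a1, Col1a2 and Col3a1 were on no array. The 3 differed in opposite directions, Dcn by 0.78 (SE 0.25), Thy1 by 0.22 (SE 0.40) and Pdgfra by -0.70 (SE 0.64). By limma 1 of 3 had an unadjusted p under 0.05, beside 7.92% of all genes. In the blocked fit there were 2, beside 13.4% (smallest adjusted p 0.106). Dcn was near background, with a mean of 4.77 in shCtrl, and was above it on 4 arrays.

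Most trophectoderm markers differed in 1 direction. All 6 measured of 8 had a negative change, with a median of -0.45. Their mean level was 6.94 to 8.13 in shAtad2 and 7.65 to 8.56 in shCtrl, while Elf5 and Hand1 were on no array. Krt7 hardly differed (-0.01, SE 0.235), with pair differences of -0.10, 0.47 and -0.41. Krt7 and Gata3 were above background on 4 arrays. Without the block 1 of 6 (16.7%) had an unadjusted p under 0.05, beside 7.92% of all genes, and in the blocked fit 5 of 6 (83.3%), beside 13.4%. On the third arrays of both groups 3 of the 6 lay below the mean of the first and second arrays and 2 above it. Cdx2, a transcription factor of trophectoderm and of the posterior embryo, read 8.99, 8.88 and 5.43 in shAtad2, against 10.08, 9.90 and 6.89 in shCtrl. Its change was -1.19, with an SE of 1.12 without the block and 0.14 with it. Its pair differences were -1.09, -1.02 and -1.46, and by limma it passed the threshold in the blocked fit (adjusted p = 0.0479) but not without the block (unadjusted p 0.322). Krt8, a keratin of simple epithelia, had a change of -0.39 (SE 0.16, adjusted p = 0.254 with the block). Their part in the changes of Atp6v0e and Npc2 was not tested.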

How the data were processed

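Total RNA of 3 shAtad2 and 3 shCtrl samples was labelled with biotin and hybridised to beadchips. For 45281 probes on each array the authors deposited an unnormalized intensity with its detection p-value, and a second table of processed intensity, in which all arrays share 1 distribution and keep the rank order of the unnormalized one. The scanner software, background treatment and normalization are not given in the sources used here, and the number of arrays limits the precision. No columns of the authors' own comparisons were present.

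Background was removed from the unnormalized values by normexp, whose noise was estimated from the detection p-values. An offset of 16 was added, the arrays were quantile-normalized and log2 was taken (neqc of limma 3.58.1, R 4.3.3). The offset and remaining background understate changes of dim probes. Probes with a detection p-value under 0.05 on at least 3 of 6 arrays were kept (18085), and the brightest stood for its gene. Platform symbols, 1 each for 34885 probes, several for 18 and none for 10378, were updated through the RefSeq gene table of GRCm38.p6. Members were read from a limma fit over all 10072 genes (lmFit and eBayes, two-sided, Benjamini-Hochberg) without a block. Fits were checked on simulated data. The simulated arrays had independent noise and no shift shared by the third arrays, so the check does not cover such a shift.

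Deviations from the group means correlated at 0.298, 0.287 and 0.578 between arrays of the same replicate number, as taken from the sample titles, each above the limit of 0.1 set for pairing. The reported fit has no block, and a fit blocked on these numbers is given where it changes a call or a count. Crossed, the first and second replicates correlated at 0.342 and 0.299, so these values do not single out 1 pairing of them. Alternatives covered background correction, offset, normalization, the processed values, the filter, the probe choice, the variance trend, the block, and arrays left out. Members and lists were chosen with earlier results of these data known. Genes named by rule were all members, the gene with the smallest p of each other list, the neighbours of Atp6v0e, and Atad2. Sort1, Rragd and single cell type markers were named after their values were seen.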

Additional observations from a re-analysis of the deposited data

How the results depend on the processing

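The change of Atp6v0e lay between -1.27 and -1.16 with single arrays left out, and was -1.32 without the third replicates of both groups. With the replicate number as a block it stayed -1.21 (SE 0.14). Counted from the most negative change of all genes, Atp6v0e ranked 5th in the reported fit and 2nd on the authors' processed values. With single arrays left out it ranked 5th to 24th. The number of genes past an adjusted p of 0.05 was 0 in the reported fit and with each single array left out. It was 1 without background correction, 1 with an offset of 50, 1 on the authors' processed values, 1 with an intensity trend, 3 without the third replicates of both groups and 10 with the replicate block. None of the other measured members was among the genes called under any setting run. Calls of Atp6v0e are not read as a result, since it was chosen by its p on these arrays. Members other than Atp6v0e at an unadjusted p under 0.05 numbered 2 of 34, beside 7.92% of all genes. With single arrays left out they numbered 1 (beside 5.28% to 5.72% of all genes) or 3 (beside 10.4% and 11.6%). Without the third replicates of both groups they numbered 5, beside 17.6%. The median change of the other V-ATPase genes ran from -0.086 to 0.068 and that of the lysosomal genes from -0.058 to 0.13 with single arrays left out, the highest without shCtrl 3. Signs of the 34 other members changed for at most 2 under the processing alternatives, Ctsa among them with probes averaged, but for up to 10 with a single array left out, so the direction of the small changes is not settled by 3 arrays per group. Probes near background, such as those of Ctsd, carry only part of a true change.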
